A study of Ovis aries with 6 samples.

Results

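BAX, BCL2, BCL2L1, BCL2L11, CASP8, RIPK1, RIPK3, MLKL and FAS, 9 genes that carry the signals of apoptosis and necroptosis, were read in the ovaries of 6 Hu sheep. All 9 were found by symbol among the 30574 genes of the count tables. They were listed by name, with earlier results of these data known. The ovaries came from 3 ewes of the high litter size group (HLS, labelled with litters of 3 or more) and 3 ewes of the low litter size group (LLS, labelled with litters under 2), all killed within hours of estrus, with 1 ovary and 1 10x Genomics 3' library per ewe. The groups are defined by litter records alone, and a single ovary taken at 1 stage of the cycle stands for each ewe.

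Apoptosis through mitochondria is set by the BCL2 family: BAX opens the outer mitochondrial membrane, BCL2 and BCL2L1 (BCL-XL) hold it closed, and BH3-only proteins such as BCL2L11 (BIM) bind the protectors and free BAX. Death receptors such as FAS start a separate route, in which CASP8 is the initiator caspase. Where CASP8 is not active, RIPK1 can pass the signal to RIPK3, which phosphorylates MLKL, the protein that ruptures the plasma membrane in necroptosis. In the ovary, apoptosis of granulosa cells, the somatic cells that surround the oocyte, is the known course of follicle atresia.

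Of 52290 barcodes, 36457 were retained as single cells, 5189 to 7096 per ewe, with a median of 5233 to 9796 UMI (unique molecular identifiers, each a counted RNA molecule) per cell. Any pair of libraries shared 13 to 28 barcodes. Clusters named from marker genes gave 2847 granulosa-like cells beside 1919 theca-like, 8258 stromal-like, 15130 endothelial-like, 2610 perivascular-like, 1086 macrophage-like and 1686 lymphocyte-like cells, each present in all 6 ewes. The FSH receptor gene FSHR was 1 of the markers used for the naming, so its level is no separate check of the name. It stood at 1.04 ± 0.188 UMI per 10000 UMI (SD, n = 6) in granulosa-like cells and at no more than 0.0115 in any other of these types. Named cell by cell from their own markers, 68.1% of granulosa-like cells kept the name, against 78.8% to 93.3% in the other types. Within the granulosa-like cells, 1151 early, 295 INHA and AMH high, 783 mural and 190 cycling granulosa cells were told apart, and 203 of the mural cells formed a cluster led by MX1 and ISG15, which interferon induces, with 199 of them from LLS replicate 2. Values below are UMI of a gene per 10000 UMI of all genes, summed over the cells of a type in 1 ewe. Because 3' counts carry no correction that makes different genes comparable, a level is compared only between cell types, states or ewes for the same gene.

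All 9 genes differed among the 7 cell types in edgeR's quasi-likelihood test with the ewe as a block and Benjamini-Hochberg adjustment, as did 96.1% of the 14423 genes tested, so the direction in each type carries the information. Granulosa-like cells had more BCL2L11 and less of 6 other genes than the mean of the other types, while BAX and BCL2 did not pass the test. Among all genes tested, 30.2% were higher and 26% lower in granulosa-like cells.

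**Figure D1:**
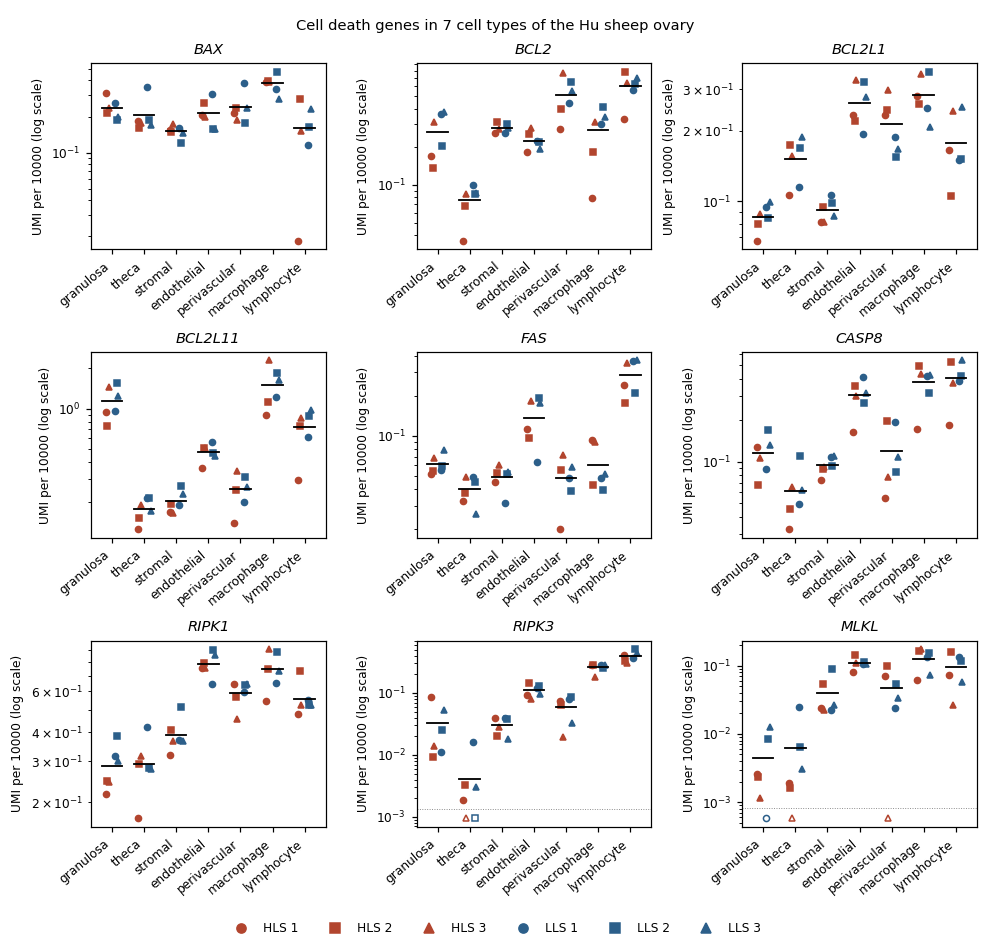
Level of each of the 9 genes (UMI per 10000 UMI, log axis) in the 7 cell types. Each point is 1 ewe (red HLS, blue LLS; circle, square and triangle for replicates 1, 2 and 3), bars are means over the 6 ewes, and open symbols below the dotted line are ewes with 0 UMI. Granulosa-like cells stand high for BCL2L11 and, with theca-like cells, at the bottom for MLKL.

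The effector BAX was highest in macrophage-like cells, and granulosa-like cells did not differ from the mean of the other types past the threshold. It ran from 0.186 to 0.315 in granulosa-like cells of the 6 ewes, with a median of 0.225, and its mean of 0.235 ± 0.0475 (SD, n = 6) lay between those of perivascular-like (0.239 ± 0.0749) and endothelial-like cells (0.214 ± 0.0580). The log2 difference between granulosa-like cells and the mean of the other types was -0.02 ± 0.15 (SE; adjusted p = 0.94 in edgeR's quasi-likelihood test). Macrophage-like cells had values of 0.279 to 0.475 and a mean of 0.379, above the next type by 1.0 on the log2 scale (edgeR's quasi-likelihood test, adjusted p = 6.5e-05). In the rest of the order, from perivascular-like down to stromal-like cells, no neighbours differed past the threshold, although the stromal-like values of 0.121 to 0.173, with a mean of 0.151 ± 0.0174, all lay below the lowest granulosa-like value.

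BCL2, the founding survival protein of the family, was lower in theca-like cells than in granulosa-like cells taken as a whole. In theca-like cells, which surround the follicle and make androgen, it ran from 0.0361 to 0.0987 with a median of 0.0843, and in granulosa-like cells from 0.137 to 0.377 with a median of 0.258. No theca-like value reached the lowest granulosa-like value. This did not hold for each granulosa state. BCL2 averaged 0.293 in early and 0.405 in mural cells. It averaged 0.0401 in INHA and AMH high and 0.0725 in cycling granulosa cells, against 0.0762 in theca-like cells. Theca-like cells fell below the mean of the other types by 2.13 ± 0.18 on the log2 scale (adjusted p = 1.0e-12, edgeR), and they stood last in the order, 1.59 below the endothelial-like cells just above them (adjusted p = 1.2e-08). The highest levels were those of lymphocyte-like cells, 0.608 ± 0.155, and perivascular-like cells, 0.516 ± 0.180, and these also differed from each other (log2 difference 0.61, adjusted p = 0.0094). For granulosa-like cells the difference from the other types was -0.29 ± 0.15 (adjusted p = 0.091).

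BCL2L1 encodes BCL-XL, the other survival protein, and granulosa-like cells had the least of it. Their values lay between 0.0677 and 0.0994, with a median of 0.0864, and they were lower than the other types by 1.31 ± 0.14 on the log2 scale (adjusted p = 4.6e-10, edgeR). Stromal-like cells, at 0.0914 ± 0.00998, could not be told from them (log2 difference 0.17, adjusted p = 0.43). In endothelial-like cells the 6 values were 0.194 to 0.328 with a median of 0.256, and no granulosa-like value reached them. Macrophage-like cells had a mean of 0.284 ± 0.0591, which did not differ from the endothelial-like mean past the threshold (adjusted p = 0.11).

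BCL2L11 was the single member of the 9 that was higher in granulosa-like cells. Its values there were 0.946, 0.744 and 1.45 in HLS replicates 1, 2 and 3, and 0.964, 1.54 and 1.25 in LLS replicates 1, 2 and 3. The theca-like values of 0.125 to 0.215, the stromal-like values of 0.166 to 0.266 and the perivascular-like values of 0.139 to 0.344 were all below the lowest of these. Granulosa-like cells exceeded the mean of the other types by 1.32 ± 0.11 on the log2 scale (adjusted p = 2.7e-13, edgeR). The mural and early granulosa means, 1.99 and 1.01, lay above the endothelial-like mean of 0.474. Those of INHA and AMH high (0.386) and cycling granulosa cells (0.244) lay below it. BIM is a known driver of death in blood cells, and macrophage-like cells at 1.5 ± 0.518 stood above granulosa-like cells (log2 difference 0.68, adjusted p = 0.00017). Lymphocyte-like cells at 0.724 ± 0.244 followed, and did not differ from granulosa-like cells past the threshold (log2 difference 0.35, adjusted p = 0.072). The summed level of the 9 measured macrophage markers was 0.118 to 0.252 in granulosa-like sums and 34.0 to 78.7 in macrophage-like sums, and that of the 9 measured lymphocyte markers was 0.0259 to 0.0919 against 34.7 to 45.4.

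FAS, the receptor for the ligand FASLG, was foremost in lymphocyte-like cells. It stood there at 0.175 to 0.368 with a median of 0.296, against 0.0521 to 0.0787 with a median of 0.0575 in granulosa-like cells. Endothelial-like cells were next at 0.137 ± 0.0530 (log2 difference from lymphocyte-like cells 1.28, adjusted p = 3.9e-06), and the 5 remaining types lay together between 0.0400 and 0.0614 with no neighbours that differed past the threshold. Granulosa-like cells were below the mean of all other types by 0.51 ± 0.18 on the log2 scale (adjusted p = 0.016, edgeR). This call was lost when the TMM factors were left out (-0.34, adjusted p = 0.10) and when HLS replicate 3 was left out (-0.45, adjusted p = 0.091).

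CASP8, the caspase that FAS recruits, followed the blood and vessel cells. Lymphocyte-like cells at 0.404 ± 0.130 and macrophage-like cells at 0.375 ± 0.115 did not differ from each other (adjusted p = 0.72), and endothelial-like cells at 0.302 ± 0.0832 came after them (log2 difference 0.48, adjusted p = 0.036). The granulosa-like values of 0.0683 to 0.171, with a median of 0.117, overlapped the perivascular-like values of 0.0547 to 0.196. Granulosa-like cells were lower than the other types by 0.71 ± 0.17 on the log2 scale (adjusted p = 0.00061, edgeR), and theca-like cells, last in the order at 0.0610 ± 0.0272, by 1.71 ± 0.20 (adjusted p = 1.8e-09).

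RIPK1, the kinase that stands between survival and death downstream of TNF receptors, was measured in every type of every ewe. In granulosa-like cells its values were 0.216 to 0.384 with a median of 0.275, and in endothelial-like cells 0.644 to 0.900 with a median of 0.775, so that the types did not overlap. Granulosa-like cells were last in the order and fell below the other types by 1.08 ± 0.11 on the log2 scale (adjusted p = 1.8e-10, edgeR). Theca-like cells at 0.293 ± 0.0798 did not differ from them past the threshold (adjusted p = 0.19).

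The terminal pair of necroptosis gave few UMI in granulosa-like and theca-like cells. RIPK3 gave 79 UMI in all granulosa-like cells and 7 in all theca-like cells. Its granulosa-like values were 0.0860, 0.00942 and 0.0140 in HLS replicates 1, 2 and 3, and 0.0111, 0.0248 and 0.0538 in LLS replicates 1, 2 and 3, so that HLS replicate 1 alone gave 33 of the 79 UMI. Theca-like cells of HLS replicate 3 and LLS replicate 2 had 0 UMI, and the other 4 ewes had 1 or 2. By contrast RIPK3 ran from 0.307 to 0.511 in lymphocyte-like cells and from 0.180 to 0.285 in macrophage-like cells. Stromal-like cells at 0.0303 ± 0.00962 did not differ from granulosa-like cells at 0.0332 ± 0.0307 (log2 difference -0.01, adjusted p = 0.98, edgeR). Mural granulosa cells averaged 0.0627, beside 0.0590 in perivascular-like cells. The low RIPK3 of granulosa-like cells was thus shared by stromal-like cells and did not hold alike for each granulosa state. Granulosa-like cells were lower than the other types by 1.17 ± 0.29 on the log2 scale (adjusted p = 0.00073, edgeR), a difference that shrank to -0.63 ± 0.28 (adjusted p = 0.049) when clusters mostly from 1 ewe were left out. Theca-like cells were lower by 4.94 ± 0.43 (adjusted p = 1.3e-12).

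MLKL, the executioner of necroptosis, gave 11 UMI in the 26938408 UMI of granulosa-like cells and 8 in the 27408411 UMI of theca-like cells. In granulosa-like cells the ewes gave 1, 1 and 1 UMI in HLS replicates 1, 2 and 3, and 0, 5 and 3 in LLS replicates 1, 2 and 3. In endothelial-like cells every ewe gave at least 122 UMI, with values of 0.0817 to 0.142 and a median of 0.109. The difference of granulosa-like cells from the other types was -3.56 ± 0.50 on the log2 scale (adjusted p = 1.2e-07, edgeR), and that of theca-like cells -3.70 ± 0.53 (adjusted p = 1.4e-07). Free RNA from lysed cells can enter droplets, and its share was not estimated here. The pooled MLKL level in granulosa-like cells was 0.00408 (exact Poisson interval 0.00204 to 0.00731, counting error only). That was 3.71% of the endothelial-like level, and theca-like cells were at 2.65%. Of the 8 endothelial markers, CDH5, PECAM1, FLI1, MMRN1, VWF, ERG and TEK stood at 1.18% to 3.02% of their endothelial-like levels in granulosa-like cells, each below MLKL, and at 0.975% to 2.9% in theca-like cells. CD34 was higher, at 6.19% and 20.3%, and reached 11.2% in early granulosa cells. MLKL in theca-like cells lay within the range of the markers other than CD34. Of the macrophage-like level, MLKL was at 2.95% in granulosa-like cells, and the macrophage markers PTPRC and CD53 were at 0.350% and 0.356%. In theca-like cells the same genes were at 2.11%, 1.02% and 0.0777%. Whether free RNA accounts for the MLKL counts, 11 UMI in granulosa-like cells, was not tested. RIPK3 was at 2.24% of the endothelial-like level in theca-like cells and at 25.7% in granulosa-like cells.

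**Figure D2:**
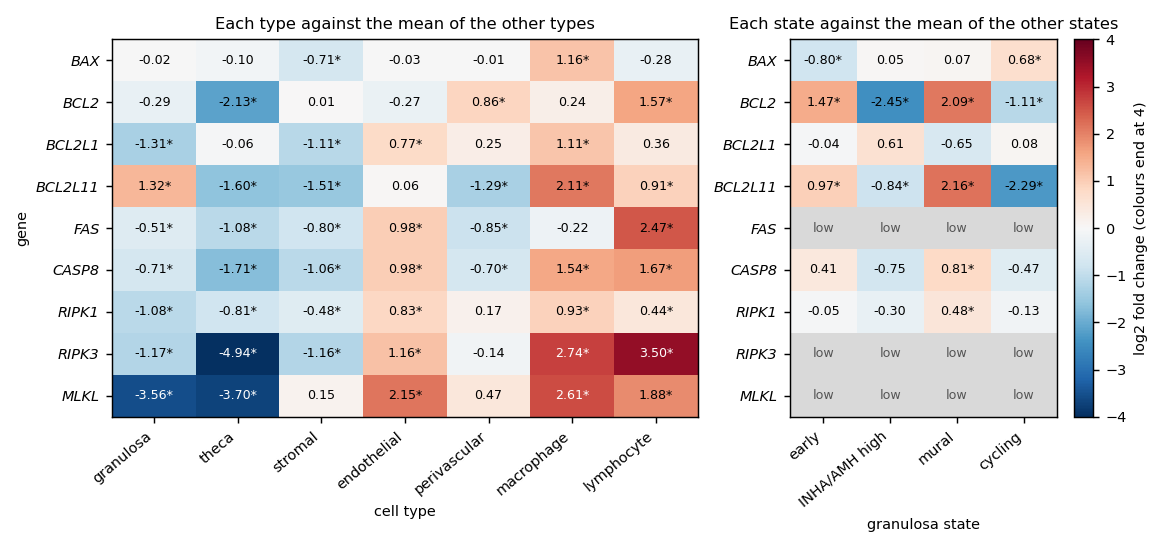
Log2 difference of each cell type (left) and each granulosa state (right) from the mean of the others for the 9 genes, from edgeR with the ewe as a block; red is higher, blue is lower, a star marks an adjusted p under 0.05 and grey cells were below the filter on low counts. Granulosa-like cells are starred as higher for BCL2L11 alone and as lower for 6 genes.

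Each other cell type had its own side of the same comparison. Theca-like cells had 7 of the 9 genes lower and 0 higher, where 30.5% of all genes tested were lower and 32.6% higher, with RIPK3, MLKL and BCL2 as the 3 largest differences. Stromal-like cells also had 7 lower and 0 higher (25.3% and 28.3% of all genes), led by BCL2L11 at -1.51 ± 0.13. Perivascular-like cells had BCL2 higher (0.86 ± 0.14) and BCL2L11, FAS and CASP8 lower (25.9% of all genes were higher and 23.8% lower). The 3 remaining types had members on the other side only: 6 were higher in endothelial-like cells (35.2% of all genes higher and 27.5% lower), led by MLKL at 2.15 ± 0.24. In macrophage-like cells 7 were higher (30.3% and 32.4%), led by RIPK3 at 2.74 ± 0.22 and MLKL at 2.61 ± 0.31. Lymphocyte-like cells likewise had 7 higher (25.3% and 30%), with RIPK3 at 3.5 ± 0.23, FAS at 2.47 ± 0.19 and BCL2 at 1.57 ± 0.16.

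The same reading was made for 9 lists of cell death genes, 68 genes in all, of which 61 were in the tables and 59 were tested among cell types. These include the 9 members. In granulosa-like cells 10 of the 59 were higher and 30 lower, beside 30.2% and 26% of all genes tested. Their median log2 difference was -0.31 against 0.02 over all genes tested. All 7 tested death receptors and ligands were lower, among them TNFRSF25 at -2.30. TNF, the ligand that leads to RIPK1, gave 4 UMI in all granulosa-like cells and 531 in lymphocyte-like cells, and FASLG, the ligand of FAS, gave 1 UMI against 353, or 0.801 ± 0.226 in lymphocyte-like cells (SD, n = 6). In theca-like, stromal-like and endothelial-like cells TNF gave 7, 18 and 18 UMI, and FASLG gave 1, 8 and 5. The calls of TNF and FASLG thus rest on the immune types where they are high, and show no trait particular to granulosa-like cells. TNFRSF25 averaged 0.00355 in granulosa-like cells (11 UMI), beside 0.00490 in theca-like, 0.00537 in macrophage-like and 0.00545 in perivascular-like cells. It averaged 0.0141 in stromal-like, 0.0649 in endothelial-like and 0.285 in lymphocyte-like cells, so its low level was not particular to granulosa-like cells either. Of the 12 necroptosis genes 8 were lower and 2 higher, the lower ones including TNFAIP3 (-3.03) and CYLD (-0.73), deubiquitinases of the TNF receptor complex, and ZBP1 (-2.03), a nucleic acid sensor that engages RIPK3. ZBP1 was sparse as well, with 7 UMI in granulosa-like, 6 in endothelial-like and 44 in macrophage-like cells. TNFAIP3 averaged 0.122 in granulosa-like and 0.0975 in theca-like cells, and from 0.318 in stromal-like to 7.18 in lymphocyte-like cells in the rest.

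Among the other BCL2 family genes, BOK, a relative of BAX, was higher in granulosa-like cells than the mean of the other types (0.91) and BAK1 was lower (-0.50). The BOK mean of 0.200 in granulosa-like cells was below those of perivascular-like (0.463), endothelial-like (0.254) and stromal-like cells (0.222), and above those of theca-like (0.0527), lymphocyte-like (0.0345) and macrophage-like cells (0.0151). The BH3-only genes BBC3 (PUMA), BAD and BID were lower, at -0.68, -0.38 and -0.26, so BCL2L11 was the sole member of that list that was higher. The BBC3 mean of 0.158 in granulosa-like cells lay above those of theca-like (0.115) and perivascular-like cells (0.115). It lay below those of endothelial-like (0.173), stromal-like (0.180), lymphocyte-like (0.404) and macrophage-like cells (0.760). Among the protectors BCL2A1 was lower (-4.12) and MCL1 higher (0.38), at 7.06 ± 0.765 in granulosa-like cells. The MCL1 mean of macrophage-like cells, 8.50, lay above that. HTRA2, a mitochondrial protease, was higher (0.43), while the caspase inhibitor gene BIRC3 was lower (-1.12). The BIRC3 mean of 0.930 in granulosa-like cells lay above those of theca-like (0.449) and stromal-like cells (0.802). It lay below those of perivascular-like (1.32), macrophage-like (3.09), endothelial-like (3.16) and lymphocyte-like cells (6.94). FOXO1, a transcription factor for which BCL2L11 is a known target, was higher by 1.92, at 3.98 ± 0.806 in granulosa-like cells, and IRS2 and TP53INP1 were higher by 1.47 and 0.71. TP53INP1 averaged 0.648 in granulosa-like and 0.851 in lymphocyte-like cells.

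Among granulosa states BCL2L11 and BCL2 had the largest F statistics of the members, 91.8 and 43.2, and that of BAX was 6.79. Of the 9 genes 6 had enough counts to be tested among the 4 states, and BCL2L11, BCL2, BAX and CASP8 differed (67.8% of the 9219 genes tested did), whereas RIPK1 (adjusted p = 0.12) and BCL2L1 (adjusted p = 0.16) did not pass the edgeR test. RIPK3, MLKL and FAS were below the filter on low counts. The count of 4 was 2 without HLS replicate 3. States were named from fixed markers, with AMH at 3.74 ± 0.699 in the INHA and AMH high state and 0.0480 ± 0.0226 in the mural state. The mural state kept FSHR at 0.763 ± 0.201, against 0.00597 ± 0.00701 in theca-like cells.

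**Figure D3:**
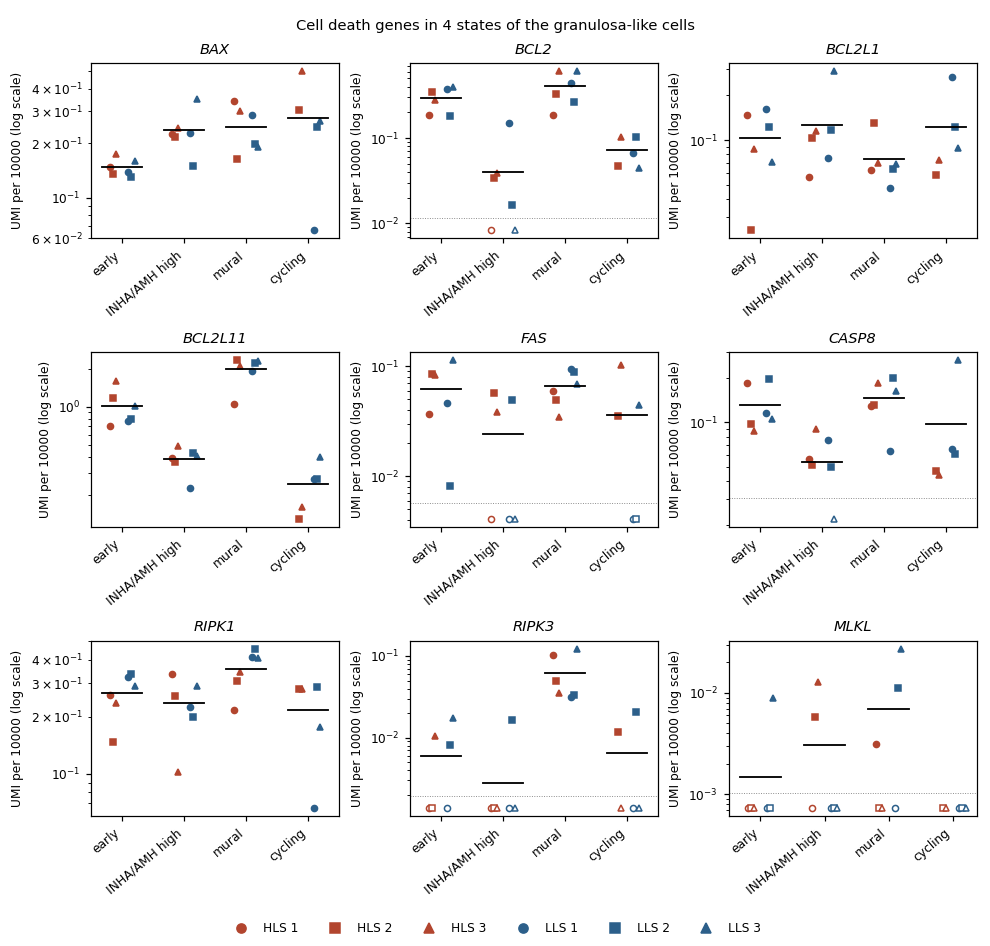
Level of each of the 9 genes (UMI per 10000 UMI, log axis) in the 4 granulosa states. Points are ewes coloured and shaped by group and replicate, bars are means, and open symbols below the dotted line are ewes with 0 UMI. BCL2L11 and BCL2 are high in the mural and early states and low in the INHA and AMH high and cycling states.

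BCL2L11 was highest in mural cells. It stood at 1.05, 2.35 and 2.12 in mural granulosa cells of HLS replicates 1, 2 and 3, and at 1.92, 2.20 and 2.29 in LLS replicates 1, 2 and 3. Early granulosa cells had 0.704 to 1.60 with a median of 0.908, the INHA and AMH high cells 0.227 to 0.487 with a median of 0.401, and the cycling cells of the 5 ewes with at least 10 such cells 0.128 to 0.399. No ewe of the INHA and AMH high or cycling states reached the lowest early or mural value. Against the mean of the other states, BCL2L11 was higher in mural cells by 2.16 ± 0.14 and in early cells by 0.97 ± 0.15, and lower in INHA and AMH high cells by 0.84 ± 0.20 and in cycling cells by 2.29 ± 0.23 on the log2 scale (adjusted p = 6.5e-14, 8.6e-06, 0.0021 and 2.7e-09, edgeR).

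As a mean over ewes, BCL2 also stood highest in mural and then in early cells, while its INHA and AMH high mean lay below its cycling mean. Its values were 0.186 to 0.609 in mural cells with a median of 0.385, and 0.180 to 0.397 in early cells with a median of 0.311. The INHA and AMH high cells gave 12 UMI in all, with 0 in HLS replicate 1 and LLS replicate 3 and at most 0.151 in the other 4 ewes, and the cycling cells ranged from 0.0444 to 0.103. Mural cells exceeded the mean of the other states by 2.09 ± 0.21 on the log2 scale (adjusted p = 1.0e-09, edgeR), and early cells by 1.47 ± 0.22 (adjusted p = 6.1e-06). The INHA and AMH high cells fell short by 2.45 ± 0.37 (adjusted p = 1.3e-05) and the cycling cells by 1.11 ± 0.36 (adjusted p = 0.016). Pooled over ewes, BCL2 was at 0.660 in the mural cluster led by MMP9, which gave 189 of the 367 mural UMI. It was at 0.241 and 0.203 in the other mural clusters, and at 0.264, 0.386 and 0.267 in the early clusters. High BCL2 was thus not shared by all mural clusters.

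BAX had a different order. Early granulosa cells had the lowest mean, 0.148 ± 0.0164, and values of 0.131 to 0.175, within which the lowest mural (0.163) and INHA and AMH high (0.150) values fell, and they were below the mean of the other states by 0.80 ± 0.19 on the log2 scale (adjusted p = 0.0015, edgeR). Cycling granulosa cells averaged 0.276 ± 0.155 (n = 5), with a lowest value of 0.0663 in LLS replicate 1, and were higher by 0.68 ± 0.22 (adjusted p = 0.015). In mural cells at 0.246 ± 0.0714 and in INHA and AMH high cells at 0.235 ± 0.0652 the differences were 0.07 ± 0.18 and 0.05 ± 0.21 and did not pass the test.

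Over the 6 tested members, mural cells thus had 4 higher and 0 lower, early cells 2 higher and 1 lower, INHA and AMH high cells 0 higher and 2 lower, and cycling cells 1 higher and 2 lower. Of all genes tested, 26.1% were higher and 27% lower in mural cells, 20.3% and 19.7% in early cells, 13.5% and 11.1% in INHA and AMH high cells, and 18.7% and 15.4% in cycling cells. The 2 other members called in mural cells were CASP8, at 0.0635 to 0.201 with a log2 difference of 0.81 ± 0.27 (adjusted p = 0.012), and RIPK1, at 0.217 to 0.457 with a difference of 0.48 ± 0.18 (adjusted p = 0.029, edgeR). Both calls were lost without HLS replicate 3 (adjusted p = 0.077 and 0.069) and without LLS replicate 2 (adjusted p = 0.085 and 0.15), and that of RIPK1 also without LLS replicate 3 (adjusted p = 0.052).

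Of the 79 UMI of RIPK3 in granulosa-like cells, 66 came from the mural state. The mural values were 0.104, 0.0489 and 0.0349 in HLS replicates 1, 2 and 3, and 0.0317, 0.0335 and 0.123 in LLS replicates 1, 2 and 3. Early, INHA and AMH high and cycling cells gave 8, 1 and 2 UMI, and the highest value of any ewe in these states was 0.0205. Where an ewe had few cells of a state, 0 UMI allows up to 0.227, more than any mural value, so a single ewe's 0 does not place it below the mural values. Pooled over ewes, RIPK3 stood at 0.0615 in mural cells (exact Poisson interval 0.0475 to 0.0782, counting error only), 0.00921 in early cells (0.00398 to 0.0181), 0.00277 in INHA and AMH high cells (upper bound 0.0154) and 0.00833 in cycling cells (upper bound 0.0301). Fitted without the filter on low counts, RIPK3 was higher in mural cells than in the mean of the other states by 2.74 ± 0.56 on the log2 scale (adjusted p = 8.7e-06, edgeR). The pooled mural level was 24.4% of that in macrophage-like cells, while the summed macrophage markers stood at 0.0978 to 0.245 in mural cells, against 34.0 to 78.7 in macrophage-like cells. MLKL gave 7 UMI in mural cells and 0 in cycling cells, where a count of 0 allows up to 0.0125. FAS had 72 UMI in mural and 64 in early cells, with means of 0.0661 ± 0.0232 and 0.0626 ± 0.0389.

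Of the wider cell death lists 43 genes, the tested members included, were tested among the states. In mural cells 23 of the 43 were higher and 3 lower, beside 26.1% and 27% of all genes tested. Their median log2 difference was 0.36 against -0.03 over all genes tested. The higher genes included PMAIP1 (NOXA), another BH3-only gene, at 2.25 and 0.956 ± 0.317, CDKN1A, a p53 target, at 1.35, and TP53INP1 at 1.79. They also included the inhibitor BIRC3 at 1.49, the deubiquitinase CYLD at 1.2, the adaptor genes TRADD and FADD at 0.67 and 0.68, and APAF1, the core of the apoptosome, at 0.55. Genes that promote death and genes that restrain it were both among those higher in mural cells. Several were also higher in early cells: CDKN1A at 1.71, TP53INP1 at 1.05, CYLD at 0.96, APAF1 at 0.54 and BIRC3 at 0.53. There PMAIP1 (0.12) and FADD (0.16) were not called, and TRADD was lower (-0.74). In cycling cells 13 of the 43 were lower and 4 higher (15.4% and 18.7% of all genes tested), with BOK at -4.26 and TP53INP1 at -2.06. Beside these values, the 7 theca markers summed to 33.8 to 88.2 in mural cells and 60.3 to 112 in theca-like cells, while CYP17A1 and INSL3, which define theca cells, stood at 0.011 and 0.007 in mural cells. The 6 stromal markers summed to 9.38 to 21.1 in mural cells, with DCN at 6.96 and PDGFRA at 1.5, against 3.41 to 5.23 in early, 1.06 to 2.04 in INHA and AMH high, 0.532 to 2.38 in cycling and 113 to 300.2 in stromal-like cells. A cluster of 203 mural cells led by MMP9 scored 0.91 on the stromal markers and 1.45 on those of its state, and INHA stood at 0.120 in mural cells, below the 0.756 of theca-like cells. The 9 dissociation and stress genes summed to 78.4 in mural cells and to 160, 146 and 147 in early, INHA and AMH high and cycling cells, and their part in these differences was not tested.

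The balance of BAX to BCL2 is often used as a readout of apoptotic readiness, and it was taken within each sum as the log2 ratio of BAX to BCL2 UMI, each with 0.5 added. Granulosa-like cells ranged from -0.92 to 0.89 with a median of -0.27. Compared within each ewe with the mean of the other 6 types, the granulosa-like ratio was higher by 0.30 ± 0.56 (SD, n = 6), with 4 of 6 ewes above 0 (two-sided exact sign-flip permutation test, p = 0.25, smallest possible 0.031). Theca-like cells had 1.42 ± 0.53 and lymphocyte-like cells -2.14 ± 0.78. Among granulosa states the ratio was 2.51 ± 1.09 in INHA and AMH high cells and 1.61 ± 1.03 (n = 5) in cycling cells, against -0.63 ± 0.84 in mural and -0.89 ± 0.48 in early cells. The value of INHA and AMH high cells rests on 12 UMI of BCL2. Because BAX and BCL2 are different genes, the ratio is read only between types, states or ewes, and its 0 has no meaning of its own.

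**Figure D4:**
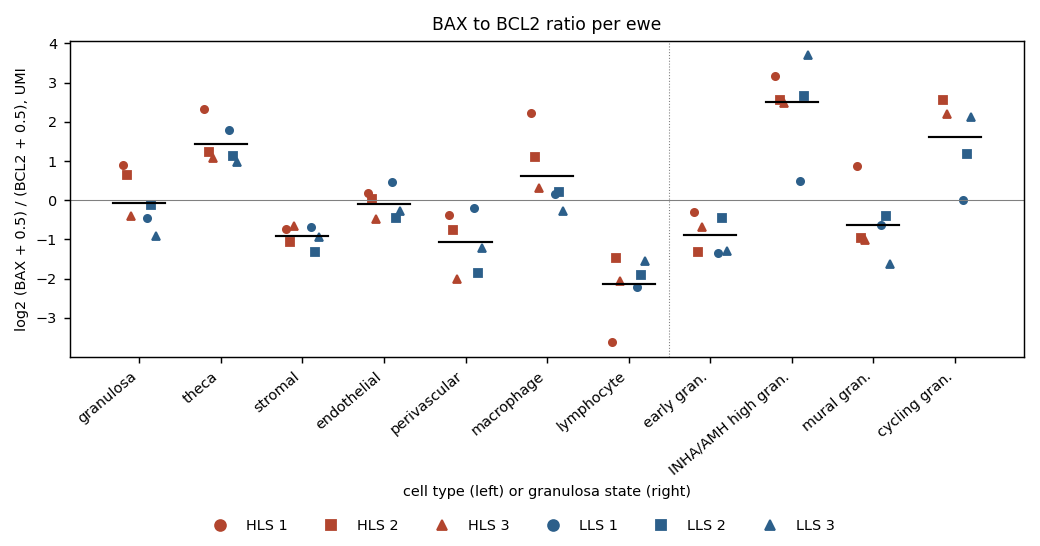
Log2 ratio of BAX to BCL2 UMI (0.5 added to each) in every ewe, by cell type and granulosa state. Points are ewes (red HLS, blue LLS), bars are means, and the dotted line parts types from states. INHA and AMH high, cycling granulosa and theca-like cells have the highest means (2.51, 1.61 and 1.42) and lymphocyte-like cells the lowest (-2.14).

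Whether ewes of large litters differed in these genes was asked in each type and state. In edgeR's quasi-likelihood test none of the 9 genes differed between HLS and LLS ewes in any of 7 types and 3 states after adjustment, and 0% of all genes tested passed in each of the 10 fits. In DESeq2 the count of members was also 0 in each. Before adjustment, 2 of the 69 member tests had a p under 0.05, BCL2L1 in perivascular-like cells and BCL2L11 in early granulosa cells, and 0 of the 8 tested in granulosa-like cells, where 572 of all 11932 genes did.

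**Figure D5:**
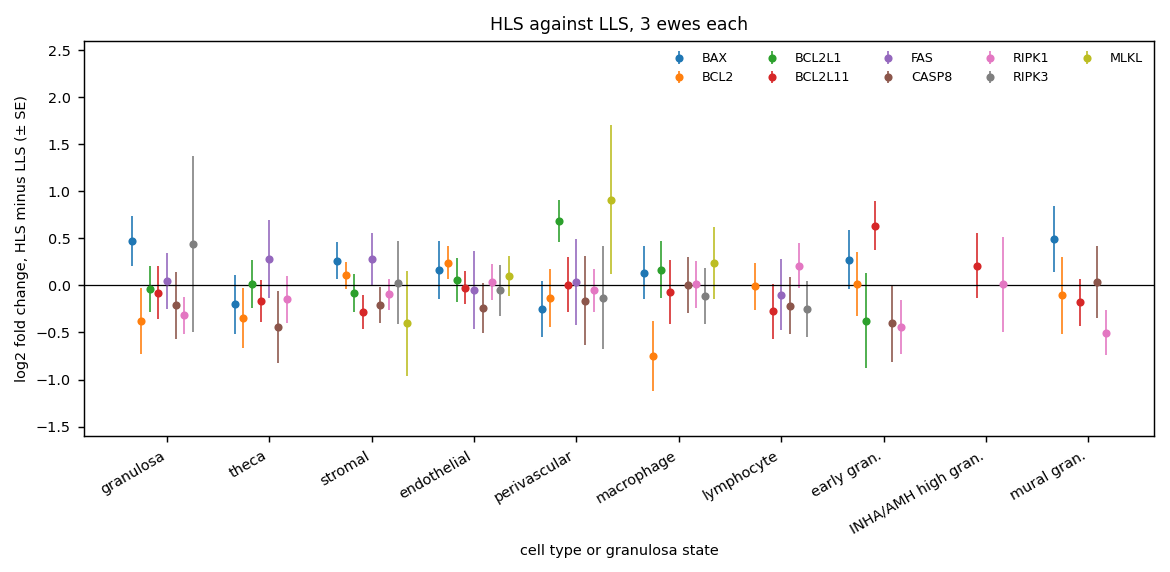
Log2 difference HLS minus LLS of each of the 9 genes in the cell types and granulosa states, from edgeR. Points are estimates coloured by gene, lines are ± 1 SE, and a gene below the filter on low counts has no point. The values scatter on both sides of 0 and none passes the adjusted threshold.

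In granulosa-like cells BAX had the lowest unadjusted p of the members. Its values were 0.315, 0.214 and 0.236 in HLS and 0.260, 0.186 and 0.199 in LLS replicates 1, 2 and 3, and the groups overlapped. The log2 difference was 0.47 ± 0.26 (edgeR, unadjusted p = 0.11, adjusted p = 0.94). BCL2 had 0.169, 0.137 and 0.314 in HLS and 0.360, 0.202 and 0.377 in LLS (log2 difference -0.38 ± 0.35, adjusted p = 0.94), again with overlap. These differences are after TMM scaling. In UMI per 10000 the means were 0.255 and 0.215 for BAX and 0.207 and 0.313 for BCL2 in HLS and LLS ewes. The BAX to BCL2 ratio in granulosa-like cells was 0.88 higher in HLS, within the spread of the ewes (two-sided exact permutation test, p = 0.20, where 3 against 3 allows no p below 0.10). BCL2L11 differed by -0.08 ± 0.28 and CASP8 by -0.21 ± 0.36. RIPK3 differed by 0.44 ± 0.93 and by -1.19 without HLS replicate 1. The granulosa-like sums differ in make-up. In HLS replicates 1, 2 and 3, 11, 148 and 54 of 275, 447 and 876 granulosa-like cells were INHA and AMH high. In LLS replicates 1, 2 and 3 these were 12, 47 and 23 of 275, 588 and 386. That state had the highest BAX to BCL2 ratio, 2.51. Within early, INHA and AMH high and mural cells the ratio was 0.27, 0.46 and 0.51 higher in HLS. The part of the make-up in these differences was not tested.

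In UMI per 10000, RIPK1 was the member whose HLS and LLS ewes did not overlap in granulosa-like cells. HLS ewes had 0.216, 0.247 and 0.245, and LLS ewes 0.316, 0.384 and 0.302, a log2 difference of -0.32 ± 0.19 (edgeR, unadjusted p = 0.13, adjusted p = 0.94). The same held in early cells, with 0.259, 0.147 and 0.237 in HLS against 0.325, 0.335 and 0.291 in LLS (-0.44 ± 0.28, adjusted p = 0.98). It also held in mural cells, with 0.217, 0.310 and 0.344 against 0.412, 0.457 and 0.411 (-0.50 ± 0.24, unadjusted p = 0.062, adjusted p = 1.0). These cells are parts of the same ewes' granulosa-like sums, so the 3 comparisons are not independent. The ewes also differ in the make-up of these states. An early cluster led by CYTL1 had 6, 6 and 0 cells in HLS and 17, 64 and 18 in LLS ewes. RIPK1 stood there at 0.757, pooled over ewes, against 0.218 and 0.261 in the other early clusters. The mural cluster led by MX1, nearly all from LLS replicate 2, was at 0.442, against 0.249 and 0.429 in the other mural clusters. The part of this make-up was not tested. FAS, below the filter on low counts in mural cells, did not overlap there either, with 0.0599, 0.0489 and 0.0349 in HLS against 0.0952, 0.0892 and 0.0684 in LLS ewes. These FAS values rest on 72 UMI over the 6 ewes, that of HLS replicate 2 on 3 UMI. The shares that follow cover genes past the filter, so FAS has no background beside it. Of all genes tested, 14.6% did not overlap on this scale in granulosa-like cells, 13.5% in early and 7.96% in mural cells (10.9%, 11% and 8.34% after TMM scaling), so 1 of 8 members in granulosa-like cells is near that background. The HLS effect on RIPK1 in granulosa-like cells differed from that in the other types by -0.31 ± 0.22 (edgeR, unadjusted p = 0.17), and no member passed this test, in which 0.00677% of genes were called.

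In the other types, the tested members without overlap were BCL2L1 in perivascular-like, BCL2 in theca-like and CASP8 in stromal-like cells, and after TMM scaling only the first. BCL2L1 in perivascular-like cells stood at 0.234, 0.245 and 0.298 in HLS and at 0.189, 0.154 and 0.166 in LLS ewes, with a log2 difference of 0.68 ± 0.22 (edgeR, unadjusted p = 0.012, adjusted p = 0.99). BCL2 in theca-like cells had 0.0361, 0.0679 and 0.0840 in HLS and 0.0987, 0.0845 and 0.0857 in LLS ewes (-0.34 ± 0.32, adjusted p = 0.96, edgeR). CASP8 in stromal-like cells had 0.0743, 0.0879 and 0.0913 in HLS and 0.108, 0.0932 and 0.110 in LLS ewes (-0.21 ± 0.19, adjusted p = 0.84, edgeR). The share of all genes without overlap was 8.65% in perivascular-like, 11.2% in theca-like, 9.84% in stromal-like, 4.77% in endothelial-like, 11.6% in macrophage-like and 7.06% in lymphocyte-like cells, and 13.2% in the INHA and AMH high state. After TMM scaling these shares were, in the same order, 8.61%, 9.63%, 11.2%, 5.25%, 12.7%, 8.17% and 12.6%. BCL2L11 in early granulosa cells had 0.704, 1.18 and 1.60 in HLS and 0.767, 0.801 and 1.01 in LLS ewes, which overlapped (log2 difference 0.63 ± 0.26, unadjusted p = 0.033, adjusted p = 0.91, edgeR). The early cluster led by CCN3 had BCL2L11 at 1.52, pooled over ewes, against 0.617 and 0.712 in the other early clusters. It held 8, 78 and 377 of 36, 123 and 523 early cells in HLS replicates 1, 2 and 3. In LLS replicates 1, 2 and 3 it held 24, 79 and 138 of 72, 189 and 208. The part of this make-up was not tested. In cycling cells, with 2 HLS and 3 LLS ewes, 2 of the 3 tested members did not overlap, where 18.2% of all genes tested did not. BCL2L11 had 0.128 and 0.162 in HLS and 0.265, 0.266 and 0.399 in LLS ewes (-1.02 ± 0.49), and BAX had 0.304 and 0.499 against 0.0663, 0.246 and 0.266 (0.93 ± 0.46), both with an adjusted p of 1.0 in edgeR, and 0% of genes were called. BCL2 in macrophage-like cells had 0.0779, 0.181 and 0.312 in HLS and 0.304, 0.414 and 0.341 in LLS ewes. The BAX to BCL2 ratio of macrophage-like cells was 1.19 higher in HLS with no overlap (exact permutation test, p = 0.10, the smallest possible, and 0.73 adjusted over the 11 types and states).

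For each member the genes of most similar level over the 42 sums of 6 ewes and 7 types were sought outside the cell death lists, as a description, since sums of a type share markers and sums of an ewe share a library. RIPK3 was closest to TGFB1 (Pearson r = 0.94 of log2 CPM), CASP8 to STK10 (0.92), RIPK1 to LRRC8C (0.93), BCL2L11 to SRGN (0.92) and MLKL to ACSL5 (0.89). The closest genes to FAS, BAX, BCL2 and BCL2L1 were LOC121820218 (0.89), PSEN2 (0.84), LOC121820444 (0.83) and PLCG2 (0.82).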

How the data were processed

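The authors mapped reads with Cell Ranger 5.0.0 and STAR and deposited raw UMI counts per gene and barcode for each ewe. The genome build is not given in the sources used here. Barcodes with under 200 genes, under 1000 UMI, log10 genes over log10 UMI below 0.7, over 10% mitochondrial or over 5% haemoglobin UMI were removed, as were 2007 doublets called from simulated neighbours. Clusters (leidenalg 0.10.2, resolution 0.8, 2000 variable genes without the cell death genes) were named from markers. UMI were summed per ewe and type or state with at least 10 cells and tested with edgeR 4.0.16 (TMM, filterByExpr, quasi-likelihood test, Benjamini-Hochberg over all genes, threshold 0.05). Types and states were compared with the ewe as a block, and HLS with LLS without one. The edgeR fits were tested on simulated data, and DESeq2 1.42.0 was an alternative.

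The members and lists were chosen with earlier results of these data known. Beyond the 9 genes, the text names, per list, up to 3 genes past the threshold with the largest difference in granulosa-like cells and up to 3 with the largest F among the states, and the 3 genes most like each member. 1 gene that this rule names is not reported here. MX1 and ISG15 were named after their values were seen. Not found in the tables were BIK, BCL2L2, TNFRSF10A, TNFRSF10B, CASP10, CYCS and XIAP, which were not analysed here. The overlap of ewes in UMI per 10000 and the HLS to LLS fit in cycling cells were added after the data were seen. Clustering used Python 3.11.15 and tests R 4.3.3.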

Additional observations from a re-analysis of the deposited data

Results flagged for a closer look

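Of 79 groups of 6 ewes with at least 30 UMI of a member, 7 held an ewe whose distance from the nearest other ewe was too large a share of the group's range for Dixon's test at the 95% level, where chance alone gives about 1 in 20. LLS replicate 1 stood out for BAX in theca-like cells, at 0.354 UMI per 10000 UMI against 0.160 to 0.189 in the other 5 ewes, and in perivascular-like cells, at 0.384 against 0.177 to 0.237. The same ewe was also the highest for BAX in endothelial-like cells, at 0.306, where it was not past the limit. HLS replicate 1 was low for BCL2L11 in mural granulosa cells, at 1.05 against 1.92 to 2.35. HLS replicate 2 was high for RIPK1 in lymphocyte-like cells, at 0.735 against 0.478 to 0.548, and HLS replicate 3 was low for RIPK3 in macrophage-like cells, at 0.180 against 0.252 to 0.285. BCL2L1 was high in the INHA and AMH high cells of LLS replicate 3, at 0.292 against 0.0560 to 0.116, and in mural cells of HLS replicate 2, at 0.130 against 0.0476 to 0.0699, values that rest on 5 and 8 UMI.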

How the results depend on the processing

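The count of members that differ among granulosa states, which was 4, ranged from 2 to 5 when each ewe was left out in turn, that among cell types stayed at 9, and that in granulosa-like cells lay between 6 and 7. The other values under an alternative were single members, counts of genes and the median difference over all genes. Of these, 24 changed sign, 11 lost their call and 3 gained one. Another 36, counts or medians, moved past a fixed limit (1.5 times for counts), and 470 did none of these. Between HLS and LLS, 0 members were called in any type or state under any alternative, which says little about stability where no gene passes, while the count of all genes called, 0 in each edgeR fit, reached 160 (macrophage-like cells) without the filter on low counts and 26 (macrophage-like cells) in DESeq2. The causes were not tested. Leaving out the TMM factors moved the median log2 difference of all genes in granulosa-like cells from 0.02 to 0.19.

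Values near 0 changed sign. BAX in granulosa-like cells against the other types was 0.15 without TMM factors, 0.11 without clusters mostly from 1 ewe, and between -0.15 and 0.027 when 1 ewe was left out. Of the HLS minus LLS differences in granulosa-like cells, FAS was -0.13 without TMM factors, -0.071 with doublets kept, -0.095 and -0.041 at 0.5 and 2 times the resolution, and between -0.053 and 0.21 with 1 ewe left out. BCL2L1 was 0.085 with doublets kept, 0.12 and 0.14 at the lower and higher resolution, and between -0.096 and 0.028 with 1 ewe left out. CASP8 was 0.13 without clusters mostly from 1 ewe and between -0.49 and 0.071 with 1 ewe left out. Leaving out 1 ewe gave a range of -0.32 to 0.12 for BCL2L11 and of -1.19 (without HLS replicate 1) to 1.06 (without LLS replicate 3) for RIPK3. None of these differences passed the threshold under these alternatives, and the causes of the sign changes were not tested.

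Naming each cell by its own markers took BCL2 in granulosa-like cells past the threshold (-0.51, adjusted p = 0.0031, edgeR). CASP8 in mural cells was not called at either other resolution (0.30 and 0.56), nor RIPK1 at the lower one (0.18) or with names per cell (0.019). Deviations of same-numbered HLS and LLS ewes from their group means had correlations of -0.36 to 0.30. Those of replicate 3 were positive in every type (0.0738 to 0.304). With group means of only 3 ewes, this check cannot decide whether the numbers pair the ewes. With the replicate block 0 members were called between HLS and LLS, and RIPK3 in granulosa-like cells was -0.17. At the depth of these sums, MLKL and RIPK3 in theca-like cells and MLKL in granulosa-like cells rest on at most 11 UMI over 6 ewes.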

Other observations

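Smaller groups of cells gave values for the same genes outside the comparisons. The 106 luteal-like cells, 105 of them from LLS replicate 3, had BCL2L11 at 0.311 and BCL2 at 0.0432 UMI per 10000 UMI, with 0 UMI of RIPK3. In the 342 epithelial-like cells BCL2L1 averaged 0.432 ± 0.155 (SD, 4 ewes), and BCL2L11 averaged 0.725 ± 0.212. In 1728 cycling cells of mixed type, BAX stood at 0.272 ± 0.0307 and BCL2L11 at 0.334 ± 0.101 (n = 6). The 428 granulosa-like cells that received no state name, among them a cluster led by KLK1 and CCL25 and one led by LHCGR and CYP19, had BCL2L11 at 0.191 ± 0.0784 and BCL2 at 0.107 ± 0.146 (n = 6), with 18 of the 24 BCL2 UMI from LLS replicate 1 (0.390, against 0 to 0.125 in the other 5 ewes). RIPK3 stood at 0.402 ± 0.174 (SD, 5 ewes) in the 363 B cell-like cells beside 0.394 ± 0.0758 in lymphocyte-like cells. Of the B cell-like cells, 155 formed a cluster led by BCL2L15, LAMP3 and PLAC8, with 84.5% from 1 ewe. It had 0 B cell markers among its leading genes, so the name is not secure for the whole group.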
